A study of Mus musculus with 4 samples.

Results

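The Hippo pathway and TEAD genes examined here were Yap1, Tead1, Tead2, Tead3, Tead4, Vgll4, Lats1, Lats2, Amotl2 and Sav1, which are 10 of 21842 protein-coding genes. They were chosen as a list of named genes, without a cut on their values but with earlier results of these data known. Their chromatin was read from every peak that overlapped the gene body or the 5000 bp upstream of it. These 10 loci held 63 of the 93513 peaks of a single-cell ATAC-Seq (scATAC-Seq) table, in which insertions of the Tn5 transposase into open chromatin are counted per peak and cell. The cells came from C57BL/6JRj mice aged 22 to 28 months and were LT-HSCs, the long-term stem cells of the blood, sorted with an antibody into CLCA3A1high and CLCA3A1low cells. CLCA3A1 is a surface protein, and no transgene or treatment is named for either group. Each group was 1 sample of 10000 sorted cells pooled from 4 mice, with 2500 cells per mouse, so no replicate was available. The study asked how chromatin differs between these 2 groups.

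In the Hippo pathway, the STK kinases, held by the scaffold SAV1, activate the kinases LATS1 and LATS2, which phosphorylate the coactivators YAP and TAZ and keep them out of the nucleus. When the kinases are off, YAP and TAZ bind the TEAD transcription factors on DNA, and VGLL4 competes with them for TEAD. Angiomotin-like proteins such as AMOTL2 bind YAP and TAZ and promote LATS activity, and Amotl2 is itself a known target of YAP, TAZ and TEAD.

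The 1454 cells carried 1 of 2 barcode suffixes, named here barcode set 1 (818 cells) and barcode set 2 (636 cells). The labels do not tie either suffix to a sample, so differences between the sets carry no direction between CLCA3A1high and CLCA3A1low cells. The table held 13050952 counts in set 1 and 9820094 in set 2, with medians of 13358.5 and 12755 counts per cell and a range of 224 to 136173. No barcode sequence was shared by the sets. Values are given as CPM, the counts of a locus in every 1000000 counts of its set, with exact 95% Poisson intervals. Ratios of set 1 to set 2 were taken as log2 values after 1 CPM was added, with an exact conditional binomial interval. Because cut sites come in pairs (88.7% of values above 0 were even), these intervals allow for counting error alone and understate the real error. Since cells of 1 library do not replicate each other, no test was run, and a difference between the sets cannot be told apart from a difference between 2 libraries.

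Loci that define stem cells were open, with 9 of 10 listed markers holding a peak and a summed level of 1279 CPM in set 1 and 1137 CPM in set 2 (Ly6a had no peak). Among these, Procr and Slamf1 were at least 1.5-fold higher in set 1. Endothelial marker loci (223 and 220 CPM summed over 5 genes) and stromal marker loci (122 and 119 CPM over 5 genes) had none past 1.5-fold in either direction. T cell loci summed to 64.4 and 85.9 CPM (Cd3e had no peak), granulocyte and monocyte loci to 102 and 109 CPM (Ly6g had no peak), B cell loci to 157 and 139 CPM (Cd79a held no count in set 1), erythroid loci to 83.6 and 64.8 CPM (Hba-a1 had no peak) and megakaryocyte loci to 271 and 241 CPM. Among the single genes of these lists, Epor was past 1.5-fold in set 1.

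TEAD factors bind a short DNA word, and the first question was where the member promoters held it. RefSeq promoter windows (GRCm38.p6, 250 bases before to 50 after a start) were found for 8 of the 10 genes, giving 11 windows, with none listed for Tead1 and Tead4. The word, read on both strands as ACATTCCA, ACATTCCT, GCATTCCA or GCATTCCT, was present in 3 of the 11 windows, those of Yap1, Lats2 and Amotl2, and in 4.64% of 32851 windows of the whole table. The windows are shown because they are the member promoters with the word, which stands in capitals. A match describes letters and is no evidence of binding.
Yap1, chr9:8004547-8004846, minus strand: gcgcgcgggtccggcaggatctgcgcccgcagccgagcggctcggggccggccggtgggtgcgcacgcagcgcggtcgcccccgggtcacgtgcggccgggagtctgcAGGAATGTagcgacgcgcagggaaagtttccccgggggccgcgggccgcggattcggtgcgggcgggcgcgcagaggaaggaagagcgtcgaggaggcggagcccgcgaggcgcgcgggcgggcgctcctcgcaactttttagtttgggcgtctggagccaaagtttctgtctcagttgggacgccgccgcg
Lats2, chr14:57746074-57746373, minus strand: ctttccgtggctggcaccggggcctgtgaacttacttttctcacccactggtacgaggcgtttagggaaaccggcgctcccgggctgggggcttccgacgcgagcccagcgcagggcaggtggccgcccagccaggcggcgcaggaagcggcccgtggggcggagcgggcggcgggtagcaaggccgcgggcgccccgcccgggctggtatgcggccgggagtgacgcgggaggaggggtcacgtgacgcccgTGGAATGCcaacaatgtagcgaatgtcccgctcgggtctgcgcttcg
Amotl2, chr9:102717554-102717853, plus strand: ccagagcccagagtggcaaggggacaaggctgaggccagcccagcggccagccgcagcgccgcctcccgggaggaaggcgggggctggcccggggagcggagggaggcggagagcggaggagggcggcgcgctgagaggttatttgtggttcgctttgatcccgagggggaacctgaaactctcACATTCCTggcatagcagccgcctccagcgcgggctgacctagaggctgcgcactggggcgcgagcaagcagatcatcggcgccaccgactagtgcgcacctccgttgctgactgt

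The 3 windows lay inside the promoter peaks of their genes, and these peaks did not move alike between the sets. Their log2 ratio was 1.23 at the Amotl2 promoter peak, 0.14 at that of Yap1 and -0.36 at that of Lats2. The promoter peaks of Tead1 and Tead4, which have no listed window, also held the word. That of Tead1 is shown in the stretch below (GRCm38, plus strand), which lies 125 bp before the middle of that peak.
Tead1, chr7:112679101-112679148: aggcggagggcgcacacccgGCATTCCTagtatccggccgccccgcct

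Over whole loci, 2 of the 10 members, Amotl2 and Sav1, were at least 1.5-fold higher in set 1, and none was so in set 2. Among all 16576 protein-coding loci with at least 50 counts, 4.36% were at least 1.5-fold higher in set 1 and 3.28% in set 2. The log2 ratio was above 0 at 7 members and below 0 at 3, with a median of 0.20 against 0.0034 over all loci. The interval included 0 at Yap1, Tead3 and Lats1. For the promoter peaks, those within 1000 bp of an annotated start, 3 of 10 members (Tead2, Amotl2 and Sav1) passed 1.5-fold, all in set 1, against 4.3% of 14861 promoters higher in set 1 and 2.99% higher in set 2. With thinned cells the Sav1 promoter fell just short of 1.5-fold, at a log2 ratio of 0.57. For the other peaks, 8 members had at least 50 counts and Amotl2 alone passed 1.5-fold, in set 1, against 9.93% of 11335 genes higher in set 1 and 10.1% higher in set 2. The members' medians were 0.33 for promoter peaks and 0.17 for other peaks, where all genes had 0.0076 and 0.0032.

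**Figure D1:**
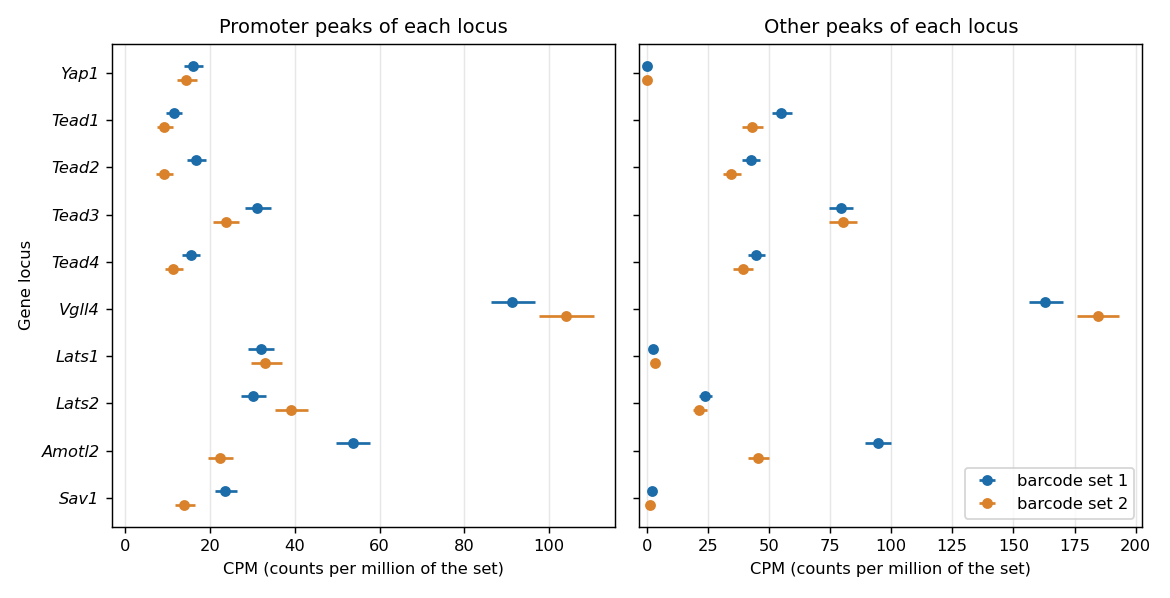
CPM of the promoter peaks (left) and other peaks (right) of each member locus in barcode set 1 and barcode set 2, with exact 95% Poisson intervals as bars. Amotl2 stood apart in both panels (53.7 against 22.3 CPM at the promoter and 94.7 against 45.7 CPM elsewhere), while Vgll4 was the most counted locus and slightly higher in set 2.

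Amotl2, the angiomotin-like gene (ENSMUSG00000032531.15, chr9:102716672-102733418, plus strand), had the largest difference of the 10 members. Its locus had 148 CPM (142 to 155) in set 1 and 68.0 CPM (63.0 to 73.4) in set 2, a log2 ratio of 1.11 (0.99 to 1.24). Of all loci, 0.652% had a higher ratio, which placed Amotl2 at rank 109 of 16576. Its promoter peak was at rank 71 of 14861, and its other peaks together were at rank 283 of 11335. After each cell was thinned to 4899 counts, 44.7% of cells in set 1 (41.1 to 48.4%, 749 cells) and 25.4% in set 2 (21.8 to 29.2%, 560 cells) had a count at the locus. Thinning brought the log2 ratio of the locus to 0.95, below its interval at full depth and still past 1.5-fold.

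All 6 Amotl2 peaks had a log2 ratio above 0, and 3 of them passed 1.5-fold. The promoter peak (chr9:102716959-102718951) had 53.7 CPM in set 1 and 22.3 CPM in set 2, from 701 and 219 counts. A peak inside the gene, 9494 bp downstream of its 5′ end (chr9:102725541-102726792), was as strongly counted as the promoter in set 1 and differed more, with 52.1 CPM (48.3 to 56.2) against 16.2 CPM (13.8 to 18.9) and a log2 ratio of 1.63 (1.39 to 1.87). It was open in 19.4% and 7.32% of thinned cells. A smaller intronic peak 5411 bp downstream had 6.97 against 1.43 CPM and a log2 ratio of 1.72 (1.16 to 2.23), from 91 and 14 counts. The difference was not even along the gene. An intronic peak 7390 bp downstream had 11.03 and 7.94 CPM, with a log2 ratio of 0.43. Another, at 14753 bp, had 15.6 and 13.1 CPM, with a log2 ratio of 0.23 and an interval of -0.07 to 0.54.

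The middle 300 bases of the intronic peak at 9494 bp are shown because that peak had the largest difference in CPM of any member peak outside a promoter. This stretch touches no exon and holds none of the words searched, so no base is in capitals. The words were that of TEAD, the PU.1 word GAGGAAGT, the word CCGGAAGT of the other ETS factors, TGAGTCA and TGACTCA for AP-1, TGTGGTTA and TGTGGTTT for RUNX, and AGATAAGA and AGATAAGG for GATA.
Amotl2 intron, chr9:102726017-102726316, plus strand: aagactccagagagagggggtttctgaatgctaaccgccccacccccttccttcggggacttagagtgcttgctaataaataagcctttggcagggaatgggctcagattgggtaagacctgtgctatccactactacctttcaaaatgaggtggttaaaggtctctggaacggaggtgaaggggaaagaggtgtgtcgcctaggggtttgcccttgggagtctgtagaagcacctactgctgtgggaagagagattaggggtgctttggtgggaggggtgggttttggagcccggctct

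**Figure D2:**
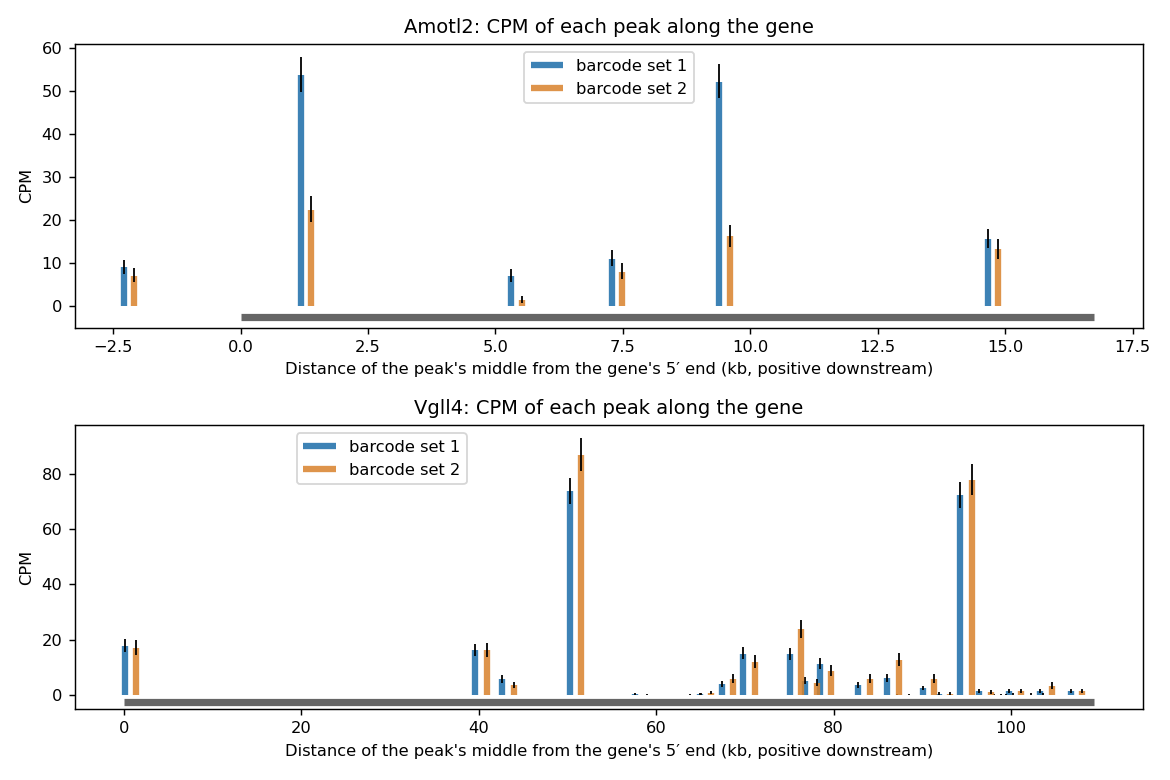
CPM of each peak along Amotl2 (top) and Vgll4 (bottom), drawn at the distance of the peak's middle from the 5′ end of the gene in kb, with exact 95% Poisson intervals as black lines and the gene body as a gray bar. At Amotl2 the promoter peak and the peak at 9494 bp carried most of the difference, whereas the 2 tallest Vgll4 peaks were 73.6 and 86.8 CPM at an internal start and 72.3 and 77.7 CPM at 94917 bp.

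Sav1, the scaffold that joins the upstream and downstream kinases (ENSMUSG00000021067.8, chr12:69965012-69987002, minus strand), was the other member past 1.5-fold. Its locus had 26.0 CPM (23.4 to 29.0) in set 1 and 15.5 CPM (13.1 to 18.1) in set 2, a log2 ratio of 0.72 (0.45 to 0.98). Of all loci, 2.78% had a higher ratio. Nearly all of these counts were in the promoter peak (chr12:69985964-69987638), with 23.7 and 13.95 CPM and a log2 ratio of 0.72 (0.57 with thinned cells, just short of 1.5-fold), and the single intronic peak held 31 and 15 counts. At equal depth the locus was open in 10.5% of cells in set 1 and 5.71% in set 2. These shares fell within the range of 0 to 10.7% that 10 loci of genes of other tissues showed in each set, so they are read as background, whereas the CPM over all cells of a set rests on 340 and 152 counts.

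Yap1, the coactivator that shares the TEAD factors with TAZ (ENSMUSG00000053110.13, chr9:7931999-8004596, minus strand), was the member with the fewest counts over its locus in each set. It had 16.1 CPM (13.99 to 18.4) in set 1 and 14.5 CPM (12.2 to 17.0) in set 2, a log2 ratio of 0.14 (-0.15 to 0.44). All counts were in the promoter peak (chr9:8003174-8005104), and the only other peak, 18 bp wide, had none. At equal depth 6.01% and 5% of cells had a count. These shares were within the range of the loci of other tissues, below Nkx2-1 as well as Actn2, and are read as background. No difference between the sets was detectable at this depth. Wwtr1, which encodes TAZ, had 140 and 104 CPM over its locus, a log2 ratio of 0.43 (0.32 to 0.54), and was open in 42.5% and 34.3% of thinned cells.

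The 4 TEAD genes encode transcription factors that share the DNA-binding domain and recruit YAP or TAZ. All had a log2 ratio above 0 over the locus, and none passed 1.5-fold there. Tead1 (ENSMUSG00000055320.17, chr7:112679318-112906807, plus strand) had 66.6 CPM (62.2 to 71.2) in set 1 and 52.4 CPM (48.0 to 57.2) in set 2, with a log2 ratio of 0.34 (0.18 to 0.50). Tead2 (ENSMUSG00000030796.17, chr7:45215753-45233644, plus strand) had 59.2 CPM (55.1 to 63.6) and 43.8 CPM (39.7 to 48.1), with a log2 ratio of 0.43 (0.26 to 0.60). These were the TEAD loci whose intervals lay farthest above 0. Tead4 (ENSMUSG00000030353.15, chr6:128224288-128300823, minus strand) had 60.3 CPM (56.2 to 64.7) and 50.7 CPM (46.4 to 55.4), with a log2 ratio of 0.25 (0.08 to 0.41). Tead3 (ENSMUSG00000002249.21, chr17:28331671-28350817, minus strand) had 111 CPM (105 to 116) and 104 CPM (97.7 to 111), with a log2 ratio of 0.09 (-0.03 to 0.20).

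At 3 of the 4 TEAD genes, the promoter ratio was higher than that of the whole locus. Tead2 had 16.7 against 9.16 CPM at its promoter peak (chr7:45215825-45217293), a log2 ratio of 0.80 (0.47 to 1.14), and 1.94% of all promoters had a higher one. Tead3 had 31.2 against 23.7 CPM (chr17:28349491-28352146), with a log2 ratio of 0.38 (0.15 to 0.61). The intervals of Tead2 and Tead3 excluded 0, and so did that of Tead4, whose promoter peak (chr6:128299849-128301586) had 15.5 against 11.4 CPM and a log2 ratio of 0.41 (0.09 to 0.73). Tead1 was the exception, with 11.5 against 9.27 CPM (chr7:112678486-112680012), a log2 ratio of 0.28 and an interval of -0.07 to 0.64. With the promoter window widened to 5000 bp, the Tead2 ratio was 0.43, no longer past 1.5-fold.

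Among their other peaks, an intronic Tead4 peak 14752 bp from the 5′ end had 22.3 and 13.7 CPM, with a log2 ratio of 0.66 (0.38 to 0.95), and its other named peaks, at 68658 and 73128 bp, had ratios of -0.15 and -0.26. In Tead1, intronic peaks at 18047 bp (9.88 and 5.91 CPM) and 128340 bp (2.84 and 1.32 CPM) had log2 ratios of 0.66 and 0.72. The most counted intronic Tead1 peaks, at 145094 and 180839 bp, had ratios of 0.44 and -0.04. A peak upstream of Tead2, with 20.8 and 13.4 CPM and a ratio of 0.59 (0.39 with thinned cells), lay at the start of the neighbouring gene Dkkl1, and a peak past the 3′ end of Tead2 had a ratio of 0.04. Without the Dkkl1 peak, the ratio of the other Tead2 peaks went from 0.29 to 0.04. The largest Tead3 signal, 63.3 and 62.1 CPM in a peak of 6982 bp, lay at the start of Rpl10a, so it cannot be assigned to Tead3 alone. An intronic Tead3 peak of few counts (6 in set 1 and 29 in set 2) had a ratio of -1.44 (-1.88 to -0.82), while another at 9629 bp had 0.04. With thinned cells that small Tead3 peak and the Tead1 peak at 128340 bp, of 37 and 13 counts, fell under 20 counts. With a pseudocount of 5 CPM, none of these peaks outside promoters stayed past 1.5-fold. The ratios were then 0.54 for Tead4, 0.45 and 0.31 for Tead1, 0.48 for Tead2 and -0.54 for Tead3.

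Vgll4, the cofactor that competes with YAP and TAZ for TEAD (ENSMUSG00000030315.15, chr6:114860628-114969994, minus strand), had the highest CPM of the 10 loci, spread over 25 peaks. Its locus had 254 CPM (246 to 263) in set 1 and 288 CPM (278 to 299) in set 2, a log2 ratio of -0.18 (-0.25 to -0.11). At equal depth 58.2% and 62.3% of cells had a count, and it was the only member with the higher share in set 2. Without thinning, all 10 members had the higher share in set 1, so the order of the sets at Vgll4 changed with thinning, which equalised depth and left out 69 and 76 shallow cells.

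The 2 Vgll4 promoter peaks differed from each other. The peak at the upstream start (chr6:114968222-114970252) had 17.7 and 17.1 CPM, a log2 ratio of 0.05 (-0.23 to 0.32). The peak over an internal start, 7970 bp wide (chr6:114915095-114923064), had 73.6 and 86.8 CPM, a ratio of -0.23 (-0.37 to -0.10). The intronic peak with the most counts, at 94917 bp, had 72.3 and 77.7 CPM and an interval that included 0. Intronic peaks at 75703, 86665, 90693 and 103909 bp were at least 1.5-fold higher in set 2, with log2 ratios of -0.65, -0.95, -1.03 and -0.84. With thinned cells the peaks at 75703 and 86665 bp stayed past 1.5-fold, at -1.06 and -0.87, and the other two fell under 20 counts. With a pseudocount of 5 CPM only that at 86665 bp stayed past it, at -0.67. The first of the peaks had 14.8 and 23.7 CPM, and the last had 1.38 and 3.26 CPM, from 18 and 32 counts. No Vgll4 peak passed 1.5-fold in set 1, and an intronic peak at 40278 bp had a ratio of 0.01.

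Lats1 and Lats2 encode the kinases that phosphorylate YAP and TAZ, and neither locus passed 1.5-fold. Lats1 (ENSMUSG00000040021.13, chr10:7681214-7716460, plus strand) had 34.6 CPM (31.4 to 37.9) in set 1 and 36.4 CPM (32.7 to 40.3) in set 2, a log2 ratio of -0.07 (-0.27 to 0.13). Lats2 (ENSMUSG00000021959.16, chr14:57689662-57758388, minus strand) had 54.2 CPM (50.3 to 58.3) and 60.7 CPM (55.9 to 65.8), a ratio of -0.16 (-0.32 to -0.00). With cells thinned to equal depth, both signs turned, to 0.20 at Lats1 and 0.05 at Lats2, and the shares of open cells were 13.4% and 12.1% at Lats1 and 19.8% and 17.9% at Lats2. No order of the sets can therefore be given for either kinase locus as a whole.

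The promoter peak of Lats2 (chr14:57744528-57747015) lay over internal starts, with its middle 12617 bp downstream of the gene's 5′ end. No peak lay within 1000 bp of the annotated start at that end. The promoter peak had 30.2 and 39.1 CPM, a log2 ratio of -0.36 (-0.56 to -0.16). It was -0.18 with thinned cells and -0.10 with the window of 5000 bp. That of Lats1 (chr10:7680325-7682171), which also covers the start of Pcmt1, had 32.0 and 33.1 CPM, a ratio of -0.05 that was 0.25 with thinned cells. Small intronic peaks of Lats2 pointed both ways. A peak at 4809 bp had 49 counts in set 1 and 2 in set 2, a ratio of 1.98 (1.37 to 2.25), and a peak at 45381 bp had 3 and 26 counts, a ratio of -1.57 (-1.89 to -0.97). These were the highest and lowest ratios of all member peaks, at low counts, and they came from 28 and 1 cells and from 2 and 12 cells. With thinned cells both fell under 20 counts. The most counted intronic Lats2 peak, at 28149 bp, had 19.8 and 18.4 CPM.

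Peak by peak, 53 of the 63 member peaks had at least 20 counts, and 10 of these were at least 1.5-fold higher in set 1, 6 in set 2 and 37 in neither. Among all 79625 peaks with at least 20 counts, 14.8% were higher in set 1 and 15.3% in set 2. The member shares were thus near those of all peaks, and the 6 higher in set 2 were 4 of Vgll4, 1 of Tead3 and 1 of Lats2. Of these 16 peaks, 8 stayed past 1.5-fold with thinned cells, 2 did not and 6 had under 20 counts, and with a pseudocount of 5 CPM 7 stayed past it. Of the 10 higher in set 1, 3 were promoter peaks and 3 belonged to Amotl2. The central 90% of all peaks spanned -1.15 to 1.01. Outside that span lay 3 Amotl2 peaks and 1 Lats2 peak on the side of set 1, and 1 Tead3 and 1 Lats2 peak on the other side.

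**Figure D3:**
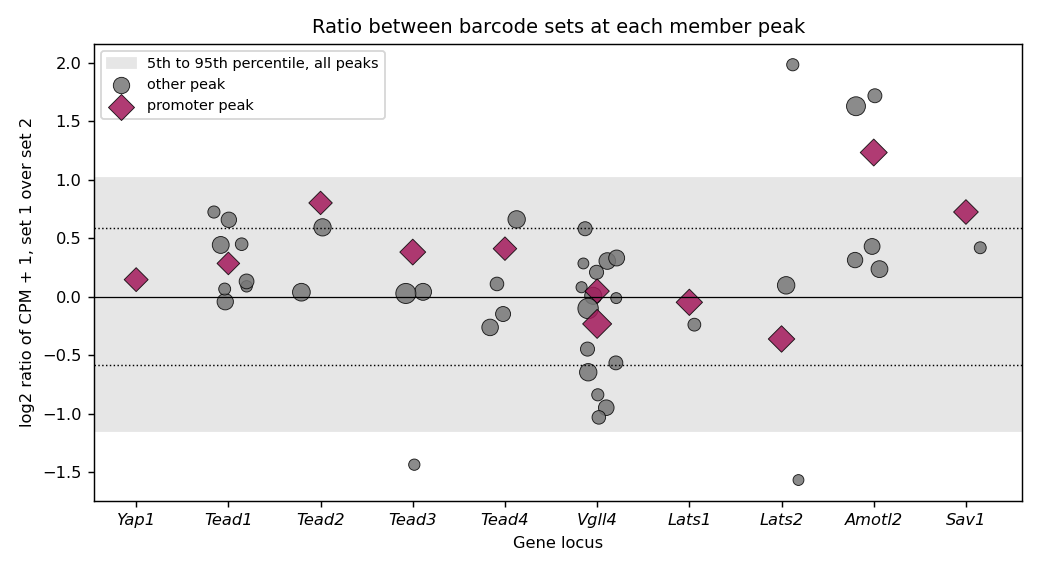
Log2 ratio of CPM + 1 of set 1 over set 2 at each member peak with at least 20 counts, by gene, with larger symbols for more counts, the gray band for the 5th to 95th percentile of all peaks (-1.15 to 1.01) and dotted lines at 1.5-fold. The promoter peak and 2 intronic peaks of Amotl2 lay above the band, and the points farthest from 0 at Lats2 and Tead3 were small peaks.

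The members' promoters were not strongly accessible for promoters. Per kb of peak, which allows levels to be compared between genes, Amotl2 had 20.2 CPM (18.9 to 21.5) over all cells, followed by Lats1 with 17.6 CPM (16.3 to 18.9) and Lats2 with 13.7 CPM (12.7 to 14.7). Sav1 (11.6), Tead3 (10.5), Vgll4 (9.67), Tead2 (9.17), Yap1 (7.97), Tead4 (7.90) and Tead1 (6.90) followed, and from Lats2 down each interval overlapped with that of the next gene. Amotl2 stood at percentile 60.8 of all promoters and Tead1 at percentile 11, and 8 of the 10 members were below the median promoter. Member promoter peaks had a median GC content of 60.2% and a CpG observed over expected ratio of 0.865, against 55.7% and 0.596 over 16777 promoter peaks. Of 50 annotated protein-coding starts of the members, 36 had a peak within 1000 bp, and 6 of the 14 without one belonged to Tead1.

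Most member peaks outside promoters, 47 of 52, lay in introns. The TEAD word was present in 11 of the 63 member peaks (17.5%) and in 10.9% of all peaks, but member peaks were wider, with a median of 981 bp against 537 bp. Per kb there were 0.167 matches in member peaks and 0.151 in all peaks. In the central 300 bp, 2 of the 63 member peaks held the word, against 3.91% of all peaks. The PU.1 word was in 10 member peaks (15.9%, all peaks 11.1%), the RUNX word in 13 (20.6% and 12.2%), the AP-1 word in 10 (15.9% and 15.9%), the GATA word in 5 (7.94% and 6.22%) and the other ETS word in 2. Per kb, matches numbered 0.154 in member peaks and 0.148 in all peaks for PU.1, and 0.179 and 0.168 for RUNX. They numbered 0.141 and 0.230 for AP-1, 0.0641 and 0.0819 for GATA, and 0.0256 and 0.0368 for other ETS. No matches of different words overlapped. The TEAD matches lay in peaks of Amotl2 (3), Lats2 (2), Tead1 (2), Tead4 (2), Vgll4 (2), Yap1 (1) and Tead2 (1), with none in Tead3, Lats1 or Sav1.

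In single cells at equal depth, 9 of the 10 members had the higher share of open cells in set 1. No such count was taken over all loci, with or without thinning, so the order is not read as a trait of the members. Median shares were also higher in set 1 for stem cell (33.4% and 29.0%) and megakaryocyte marker loci (19.8% and 17.6%). So were those of stromal (9.88% and 7.68%), B cell and erythroid loci. T cell, granulocyte and monocyte, and endothelial loci, and the loci of other tissues, had the reverse order. Tead1 was open in 24.0% and 19.6% of cells, Tead2 in 20.6% and 15%, Tead3 in 33.6% and 30.9% and Tead4 in 21.2% and 17.3%. The Tead3 shares include the peak at the start of Rpl10a, which by itself was open in 20.7% and 21.4% of cells. The median over the members was 20.9% in set 1 and 17.6% in set 2. A cell had a median of 2 open members in both sets, with a mean of 2.52 in set 1 and 2.11 in set 2. No member was open in 3.60% of cells of set 1 and in 8.39% of set 2, and at most 7 were open in 1 cell. These means and shares include Amotl2, open in 44.7% and 25.4% of cells. No such values are given for other loci, so they are not read as a shift of all members.

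**Figure D4:**
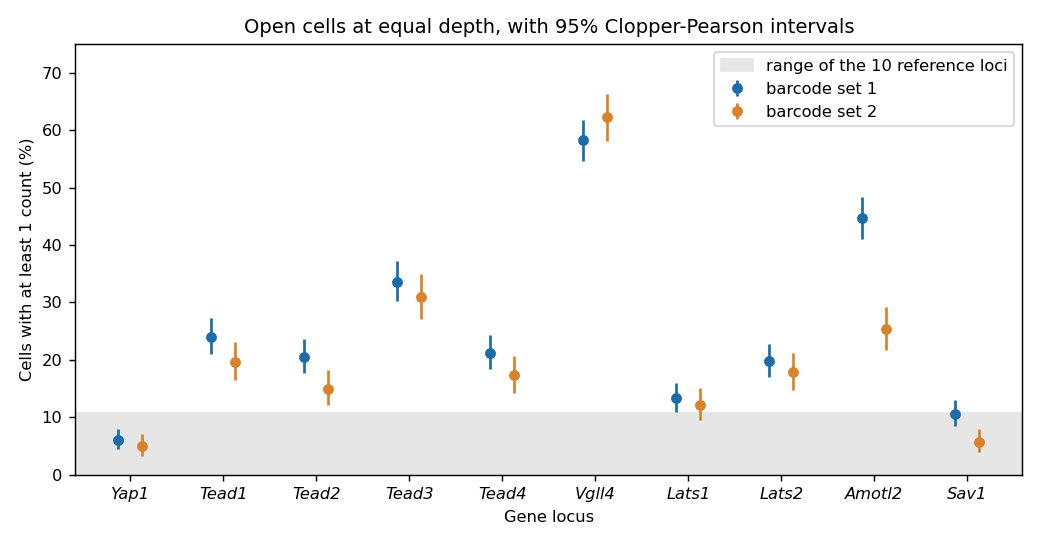
Share of thinned cells (4899 counts each, 749 cells of set 1 and 560 of set 2) with at least 1 count at each member locus, with exact 95% Clopper-Pearson intervals, and a gray band for the range at 10 loci of genes of other tissues. The intervals of the sets were apart at Amotl2 (44.7% and 25.4%) and at Sav1 (10.5% and 5.71%), whose shares lay within the band. The top of the band was Actn2 alone, and the set 1 interval of Sav1 passed it.

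Opening of the members in the same cell was close to that of independent loci. Among the 8 loci open in at least 10% of cells in both sets, which left out Yap1 and Sav1, the 28 pairs had a median observed over expected number of doubly open cells of 1.01 in set 1 (0.76 to 1.31) and 1.02 in set 2 (0.64 to 1.42). The highest pairs were Tead3 with Tead4 (1.31), Tead4 with Lats2 (1.21) and Tead2 with Tead4 (1.19) in set 1, and Tead1 with Lats1 (1.42), Lats1 with Lats2 (1.32) and Tead2 with Amotl2 (1.27) in set 2. The lowest were Lats1 with Lats2 (0.76), Tead2 with Lats1 (0.83) and Tead2 with Tead3 (0.87) in set 1, and Tead4 with Lats2 (0.64), Tead2 with Lats1 (0.69) and Tead1 with Tead2 (0.79) in set 2. Of the 6 extreme pairs of each set, 3 were also extreme in the other set. Lats1 with Lats2 was the lowest pair of set 1 and among the highest of set 2, Tead4 with Lats2 did the reverse, and Tead2 with Lats1 was low in both. These pairs rest on 7 to 70 cells, so they are given as a description. The Tead2, Tead3 and Lats1 loci include peaks at the starts of Dkkl1, Rpl10a and Pcmt1, so their pairs cannot be assigned to the members alone.

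The other genes of the pathway were counted from a list of 32 core components and regulators. Of the 31 with at least 50 counts, 1 was at least 1.5-fold higher in set 1, 1 in set 2 and 29 in neither, with a median log2 ratio of 0.06. Both counts were near the 4.36% and 3.28% of all loci given above, as were those of the target genes below. Ptpn14, which encodes a phosphatase that binds YAP, had 167 CPM in set 1 and 93.4 CPM in set 2, a ratio of 0.83 (0.72 to 0.94). Dchs1, which encodes a protocadherin that acts upstream of the pathway, had 26.0 and 40.9 CPM, a ratio of -0.64 (-0.84 to -0.43). Of 19 tested genes among 20 known YAP and TAZ targets, none was past 1.5-fold in set 1 and 1 was in set 2, with a median of -0.005. That gene was Dock5, a guanine nucleotide exchange factor, with 77.0 and 123 CPM and a ratio of -0.67 (-0.79 to -0.55).

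The stem cell markers Procr and Slamf1 were higher in set 1 with Amotl2 and Sav1, at log2 ratios of 0.70 and 0.86, and the sum of the endothelial loci had a log2 ratio of 0.02. The single endothelial loci went both ways, at 0.50 (Tek), 0.31 (Kdr), 0.13 (Emcn), -0.13 (Pecam1) and -0.28 (Cdh5). The part of the stem cell and endothelial loci in the Amotl2 and Sav1 values was not tested. Without the 57 cells that had more than 3 times the median counts, Amotl2 was open in 45.6% and 23.2% of thinned cells.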

How the data were processed

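scATAC-Seq was measured in 4 samples, and the 2 from CLCA3A1high and CLCA3A1low LT-HSCs bear on these values. The authors processed the reads with Cell Ranger ATAC 1.2.0, which the submitters' processing notes name beside the builds mm10 and GRCm38, and deposited raw counts of cut sites per peak and cell without a stated normalization. A second table carries no peak names and was not analysed here. All cells were kept and no doublet caller was run. Peaks were assigned with GENCODE M21 on GRCm38, with starts read as counted from 0 and printed as counted from 1. Ratios used a pseudocount of 1 CPM, at least 50 counts per locus or 20 per peak, and 1.5-fold (log2 0.585) as a rule of size. For shares of cells, each cell was thinned without replacement to 4899 counts, the 10th percentile, which left out 69 and 76 shallower cells. Scripts ran in Python 3.11.15 with numpy 2.4.6, scipy 1.17.1, pysam 0.24.0 and matplotlib 3.10.9 and were tested on simulated data. Each promoter peak was named, with at most the 3 most counted other peaks per member and those past 1.5-fold. Pathway genes were named if past 1.5-fold, and pairs if among the 3 highest or lowest. Values of some single marker genes are not reported here. The members and lists were chosen with earlier results of these data known.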

Additional observations from a re-analysis of the deposited data

How the results depend on the processing

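Members past 1.5-fold over whole loci (2) and over other peaks (1) kept their counts under every alternative run, and the count for promoter peaks was 3 or, with thinned cells (without Sav1, at 0.57) or a promoter window of 5000 bp (without Tead2), 2. Member peaks past 1.5-fold went from 16 to 10 (8 in set 1 and 2 in set 2) with thinned cells and to 7 (6 and 1) with a pseudocount of 5 CPM, which damps peaks of few counts. The median share of open cells over the members was 19.3% in all thinned cells, 31.0% without thinning and 31.2% at 2 times the depth. The median ratio of co-opening in set 1 was 1.01, and 1.18 in all cells without thinning, and the cause was not tested. The TEAD word was in 11 peaks (10.9% of all peaks), and in 2 within the central 300 bp (3.91% of all peaks). Of the ratios per member and alternative, 201 stayed within the interval of the value given and 15 did not, and 6 ratios under 1.5-fold changed sign. Scaling by the median of ratios moved all log2 values by -0.0086. No paired analysis was possible because the barcode sets are not mapped to samples and each group has 1 sample. For the same reason no replicate was left out.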
